A study of Mus musculus with 10 samples.

Results

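The Obox genes (oocyte-specific homeobox genes) are a family of transcription factor genes of the mouse. Of the 35501 genes with a value, 6 were taken as members by symbol: Obox1, Obox2, Obox3, Obox5, Obox6 and Obox7. Transcript values were summed for each gene and were also kept singly, which gave 25 transcripts of the 6 genes. All 6 genes lie on chromosome 7 (GRCm38), between 14659496 and 15839678. Another 48 annotated Obox genes and pseudogenes with a value are described at the end as their surroundings.

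The study profiled single oocytes of ICR mice aged 6 to 8 weeks. Oocytes were taken from the ovary at the germinal vesicle stage and matured in culture for 16 h, and those at metaphase II were sequenced. The 5 control libraries received no TubA, and the 5 TubA libraries had TubA at 0.1 µg/mL during the 16 h of culture. The labels give the agent only as TubA, a short form used for the HDAC6 inhibitor tubastatin A, and they name no vehicle. Both groups share the in vitro maturation, so neither stands for an oocyte ovulated in the animal. The question for the family was whether Obox RNA made up a different part of each oocyte's library after maturation with TubA. Since neither animals nor cultures are named, a p-value here reflects library-to-library spread, part of which may be technical.

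Homeobox genes encode proteins that bind DNA through a homeodomain, a fold of helices of which the last lies in the groove of the DNA. Obox1, Obox2, Obox5 and Obox7 are known as maternal members, whose RNA is stored in the oocyte, and Obox3 as a member switched on in the early embryo. Mouse embryos that lack the maternal and embryonic Obox genes together fail to activate their genome properly and arrest in early cleavage, and members can stand in for each other. A fully grown oocyte is transcriptionally silent, so the RNA at metaphase II is a store left from growth that is translated or removed during maturation.

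The homeobox of each member is shown because it defines the family and shows how alike the members are. The 180 bases were read from the GENCODE M21 transcript of each gene (GRCm38, sense strand), that is, from the reference strain, and ICR alleles may differ. The capitals mark the bases TGGTTCAAGAAC, which in all members but Obox2 are codons at the core of the DNA-binding helix.
Obox5 (Obox5-201, bases 432 to 611): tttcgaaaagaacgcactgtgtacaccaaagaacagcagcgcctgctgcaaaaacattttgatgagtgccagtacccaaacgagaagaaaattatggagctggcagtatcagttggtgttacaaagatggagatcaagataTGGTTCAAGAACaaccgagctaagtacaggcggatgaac
Obox1 (Obox1-206, bases 384 to 563): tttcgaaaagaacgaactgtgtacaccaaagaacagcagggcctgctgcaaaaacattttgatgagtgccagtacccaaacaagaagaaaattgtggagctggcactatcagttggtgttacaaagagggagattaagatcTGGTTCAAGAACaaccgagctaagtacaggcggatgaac
Obox2 (Obox2-201, bases 611 to 784): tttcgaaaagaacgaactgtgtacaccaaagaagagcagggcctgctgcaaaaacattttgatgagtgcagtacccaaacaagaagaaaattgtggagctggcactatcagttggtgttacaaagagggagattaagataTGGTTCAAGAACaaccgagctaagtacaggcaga
Obox7 (Obox7-201, bases 440 to 619): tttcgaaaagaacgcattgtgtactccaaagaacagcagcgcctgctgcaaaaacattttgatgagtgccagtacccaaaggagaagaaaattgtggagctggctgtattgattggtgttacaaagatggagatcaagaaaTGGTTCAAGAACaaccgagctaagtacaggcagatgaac
Obox3 (Obox3-202, bases 446 to 625): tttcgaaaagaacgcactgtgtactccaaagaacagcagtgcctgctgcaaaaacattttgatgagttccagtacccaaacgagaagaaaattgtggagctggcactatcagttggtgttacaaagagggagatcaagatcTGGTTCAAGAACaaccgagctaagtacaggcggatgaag
Obox6 (Obox6-201, bases 497 to 676): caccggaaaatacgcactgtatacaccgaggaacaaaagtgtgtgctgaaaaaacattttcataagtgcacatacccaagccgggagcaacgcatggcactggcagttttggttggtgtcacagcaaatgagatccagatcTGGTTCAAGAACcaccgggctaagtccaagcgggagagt
The homeoboxes of Obox1, Obox3, Obox5 and Obox7 were identical at 91.1% to 96.1% of their bases, counted pair by pair. Obox6 stood apart, at 69.4% to 72.8% identity with those 4 genes. The bases TGGTTCAAGAAC occurred in all 6 members. In Obox1, Obox3, Obox5, Obox6 and Obox7 they lay in the annotated reading frame, with the codon AAG in their middle, which encodes lysine. Homeodomains of the Otx and Crx type also have lysine there and are known to favour the site TAATCC. In Obox2 the reference holds 1 base fewer than in Obox1, in the run CC at positions 69 to 70 counted from the first base of the Obox1 homeobox. The homeobox of Obox2 begins in the annotated reading frame, but 140 bases precede the capitals there against 141 in Obox1, so the capitals of Obox2-201 lay outside the annotated reading frame and are not codons there. With that gap 176 of 180 bases were identical (97.8%), and without it 130. The annotated coding length of Obox2-201 was 453 bases against 612 for Obox1-206, and only the 174 bases inside the annotated coding part are printed.

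The oocytes of both groups held the RNA of 4 members in abundance and almost none of the other 2. Obox5 was the most abundant, on rank 70 of all genes by mean TPM, followed by Obox2 (rank 146), Obox1 (rank 173) and Obox7 (rank 520). Values are in TPM, an abundance corrected for transcript length and brought to an equal total in each library. They are thus shares of a library, and amounts of RNA per oocyte cannot be read from them. TPM carries no sequencing depth, so no counting interval can be given. Obox3 and Obox6 averaged under 1 TPM.

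Obox5 (chr7:15750131-15759800, plus strand) stood at 2124, 1935, 1242, 1750.2 and 1916 TPM in control libraries 1 to 5. In TubA libraries 1 to 5 it stood at 2004, 1915, 2365, 1304 and 1913 TPM. The groups overlapped over most of their range, and the low values were those of control 3 and TubA 4. Means were 1794 ± 335 TPM without TubA and 1900.0 ± 382 TPM with it (SD, n = 5 per group, here and below).

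Obox2 (chr7:15388721-15398545, plus strand) stood at 843, 859.7, 444, 984 and 1145.5 TPM in the control libraries. With TubA it stood at 748, 809, 1398, 589 and 1029.5 TPM. Control 3 was again the lowest library and TubA 3 the highest, a spread of 3.15-fold, the widest of the 4 abundant members. Means were 855 ± 259.9 and 915 ± 313 TPM.

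Obox1 (chr7:15388948-15556866, plus strand) stood at 859, 787, 487.5, 895 and 884 TPM in the control libraries. With TubA it stood at 677, 732, 1215, 550.0 and 887 TPM. The order of libraries was close to that of Obox2, with control 3 lowest, TubA 4 next and TubA 3 highest. Means were 782 ± 170.1 and 812 ± 255.5 TPM.

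Obox7 (chr7:14659496-14665996, plus strand) stood at 450.0, 337, 242, 371 and 243.5 TPM in the control libraries. With TubA it stood at 298, 327, 412.5, 208 and 390.1 TPM. Here control 5 was low beside control 3, and the lowest library was TubA 4. Means were 329 ± 88.5 and 327 ± 81.1 TPM.

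Obox3, the member known from the early embryo (chr7:15479825-15639902, minus strand), stood between 0.108 and 0.630 TPM in control libraries and between 0.199 and 0.346 TPM in TubA libraries. Obox6, known for promoting the reprogramming of cells to pluripotency (chr7:15833241-15839678, minus strand), was listed at 0 in 8 libraries. It stood at 1.302 TPM in control 3 and 1.033 TPM in TubA 5. Both genes were thus at trace level in these oocytes, with overlapping groups for Obox3 and 1 library above 0 in each group for Obox6.

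**Figure D1:**
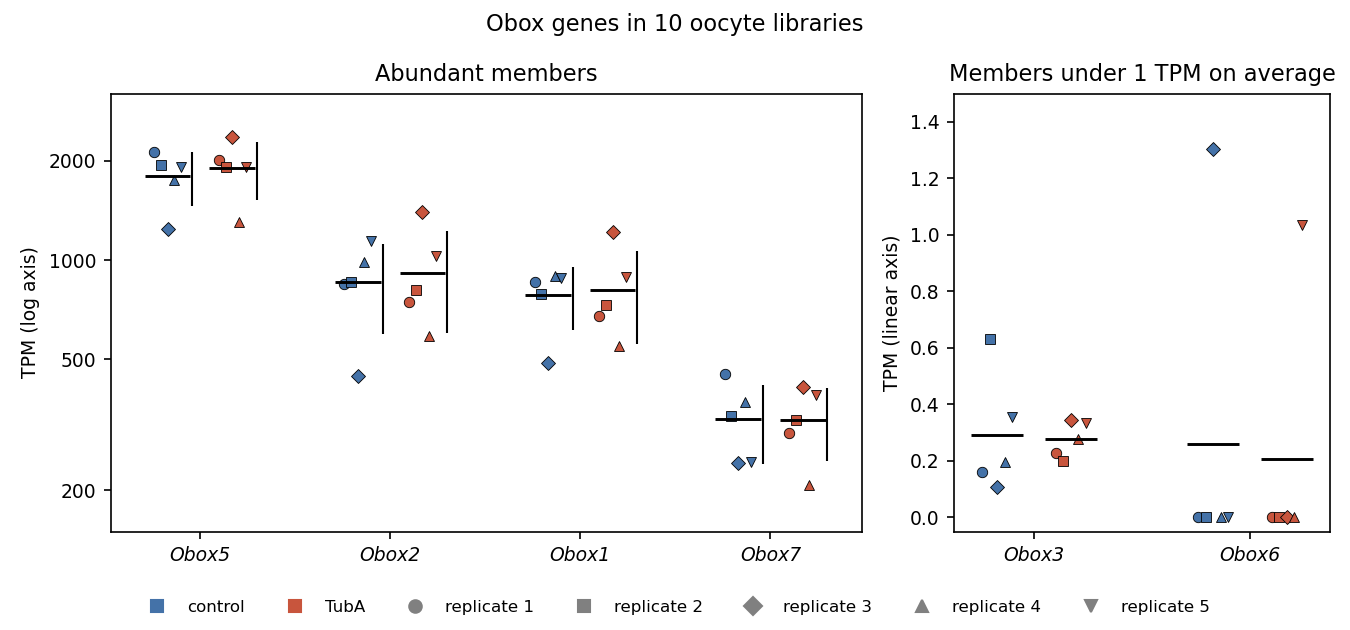
TPM of each Obox gene in each oocyte library, control in blue and TubA in red, with the replicate number as the marker shape; the left panel has a log axis and the right panel a linear one. Horizontal lines are group means and vertical lines the SD (n = 5). The 4 abundant members sit between 208 and 2365 TPM with overlapping groups, and Obox3 and Obox6 near 0.

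The order of the members by mean TPM mostly held within libraries. The neighbouring pairs were taken from the means of these same 10 libraries, so their p-values are no independent support for the order. Obox5 exceeded Obox2 in 10 of 10 libraries, by 1.10 on the log2(TPM + 1) scale (exact two-sided sign-flip permutation test within libraries, p = 0.00195, the smallest possible, adjusted p = 0.00326 over 5 neighbouring pairs). Obox1 exceeded Obox7 in 10 of 10 libraries by 1.28, and Obox7 exceeded Obox3 in 10 of 10 by 7.97, each with the same exact p. Obox2 exceeded Obox1 in 8 of 10 libraries, by 0.13 only (exact p = 0.0215, adjusted p = 0.0269). That smallest step did not pass when control 5, TubA 3 or TubA 5 was left out, which brought the pairs that passed from 4 to 3. Obox3 and Obox6 were not told apart (0.13, exact permutation p = 0.463).

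TubA did not shift the 4 abundant members beyond the spread between oocytes. Differences between groups were close to 0 for Obox7 and Obox1 and slightly positive for Obox5 and Obox2. Each was smaller than its own standard error. No member had groups that did not overlap, against 0.454% of all genes tested, and no member was called by limma (0 of 4 tested). Among all 11664 genes tested 1 was called (0.00857%), and 293 had an unadjusted p under 0.05.

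Obox5 differed by 0.08 on the log2(TPM + 1) scale, TubA minus control (SE 0.19, limma, adjusted p = 0.9999, as for the other 3 genes). The 95% interval ran from 0.794-fold to 1.41-fold. For Obox2 the difference was 0.10 (SE 0.28), with an interval from 0.704-fold to 1.63-fold. For Obox1 it was 0.03 (SE 0.23), from 0.719-fold to 1.46-fold. For Obox7 it was -0.0044 (SE 0.23), from 0.702-fold to 1.42-fold. The intervals therefore leave room for changes of these sizes in either direction, and a 2-fold change lies outside all 4 of them. Obox3 and Obox6 fell below the filter of 1 TPM on average and were not tested.

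**Figure D2:**
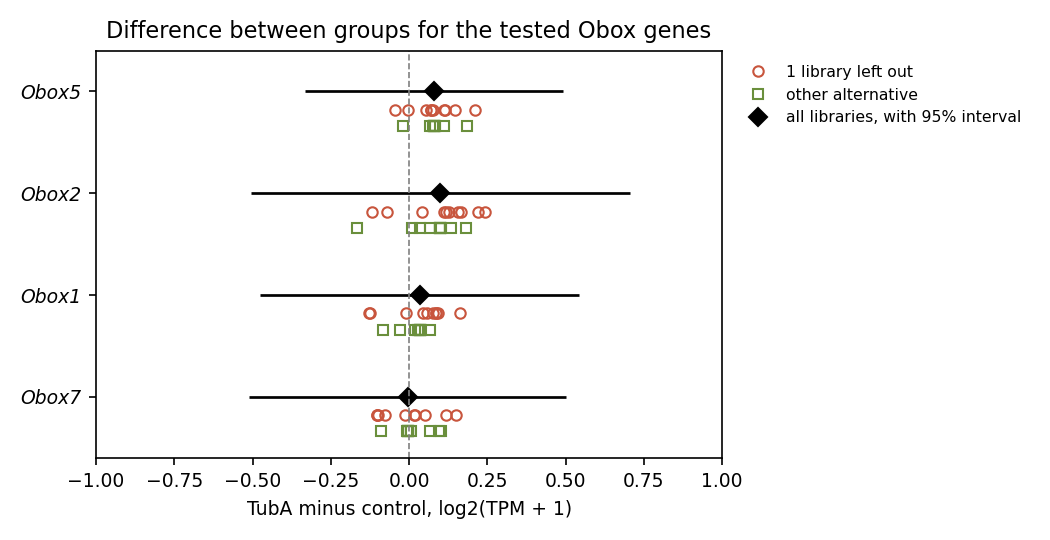
Difference between groups (TubA minus control, log2(TPM + 1)) for the 4 tested Obox genes, with the 95% interval of the fit on all libraries as a line, the 10 fits that leave out 1 library as circles and the other alternatives as squares. All intervals cross 0, and the alternatives range from -0.17 to 0.24.

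The 88 further fits of the 4 genes, with other pseudocounts, filters, scalings, weights and left-out libraries, called none of them (lowest adjusted p = 0.987, limma). The sign was not fixed: leaving out control 3 gave -0.13 for Obox1, -0.12 for Obox2 and -0.05 for Obox5, and leaving out TubA 3 also turned these 3 genes negative.

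Summed over the 6 members, the family made up 0.242% to 0.539% of each library's TPM. The sum was 4277, 3919, 2417, 4000.1 and 4189 TPM in control libraries 1 to 5, and 3727, 3783, 5390.5, 2650.3 and 4221 TPM in TubA libraries 1 to 5. Control 3 and TubA 4 were the 2 low libraries and TubA 3 the high one, so the extremes were not those of 1 group. Means were 3760.4 ± 764 TPM and 3954 ± 989 TPM, a difference of 193.9 TPM (exact two-sided permutation test over all assignments of 5 of 10 libraries, p = 0.825). Without control 3 the difference was -141.9 TPM, and without TubA 3 it was -165.2 TPM.

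The share of each of the 4 abundant members in the family sum spanned less than the sum itself, which spanned 2.23-fold. Part of this follows by construction, since the sum contains the gene. Obox5 made up 43.8% to 53.8% of the sum, Obox2 18.4% to 27.4%, Obox1 18.2% to 22.5% and Obox7 5.81% to 10.5%. The share of Obox1 thus spanned 1.24-fold where its TPM spanned 2.49-fold, and that of Obox5 spanned 1.23-fold where its TPM spanned 1.90-fold. The share of Obox7 spanned 1.81-fold, nearer to the 2.17-fold of its TPM. No difference of the 4 shares between groups passed the test (exact permutation tests, p = 0.548 to 0.810, adjusted p = 0.810 for each). These shares were chosen for description after the values were seen.

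**Figure D3:**
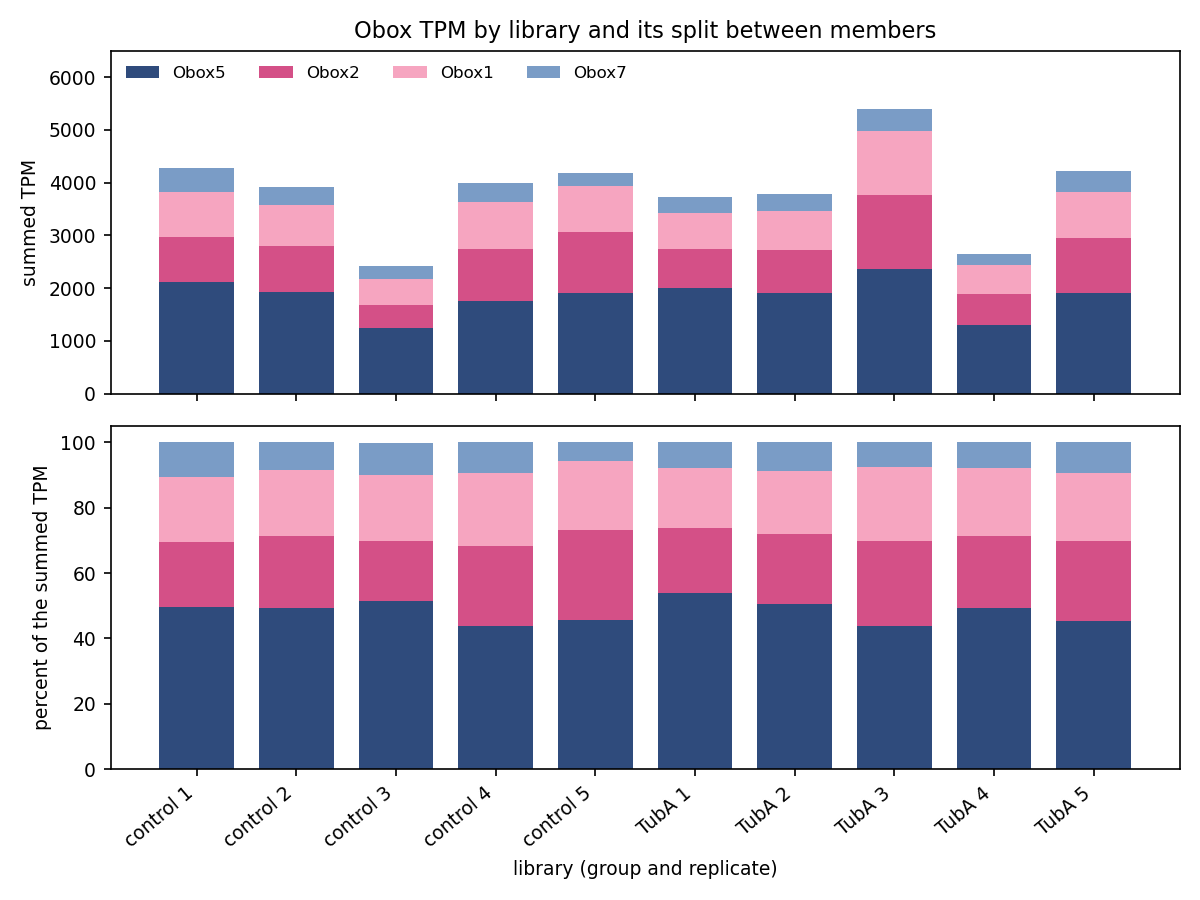
Summed TPM of the Obox genes in each library (top) and the percentage of that sum from each member (bottom), as stacked bars; Obox3 and Obox6 are too low to be seen. The sum ranges from 2417 TPM in control 3 to 5390.5 TPM in TubA 3, while Obox5 stays between 43.8% and 53.8% of it.

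The libraries with the lowest Obox sums, control 3 and TubA 4, had the highest numbers of genes detected. Their mean correlation with the other libraries was 0.909 for each, the lowest of a range of 0.909 to 0.938. On the share of the top 100 genes and the mitochondrial share they did not stand alone. They had 11677 and 11698 genes at 1 TPM or more, within a range of 10521 to 11698. Their 100 most abundant genes held 36.3% and 36.8% of TPM, within a range of 36.3% to 42.8%. Mitochondrial coding genes held 0.821% and 0.812%, within a range of 0.641% to 1.64%. TubA 1 had the lowest Obox sum after control 3 and TubA 4, at 3727 TPM. It had the lowest mitochondrial share (0.641%) and a share of 36.7% in the top 100 genes, between those of control 3 and TubA 4. TubA 3, with the highest Obox sum, had 10838 genes at 1 TPM or more and 41.0% of TPM in the top 100 genes. Control 1 was more extreme on both measures (10521 genes and 42.8%), and its Obox sum of 4277 TPM was the highest after that of TubA 3. The part of these library measures in the Obox levels was not tested.

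**Figure D4:**
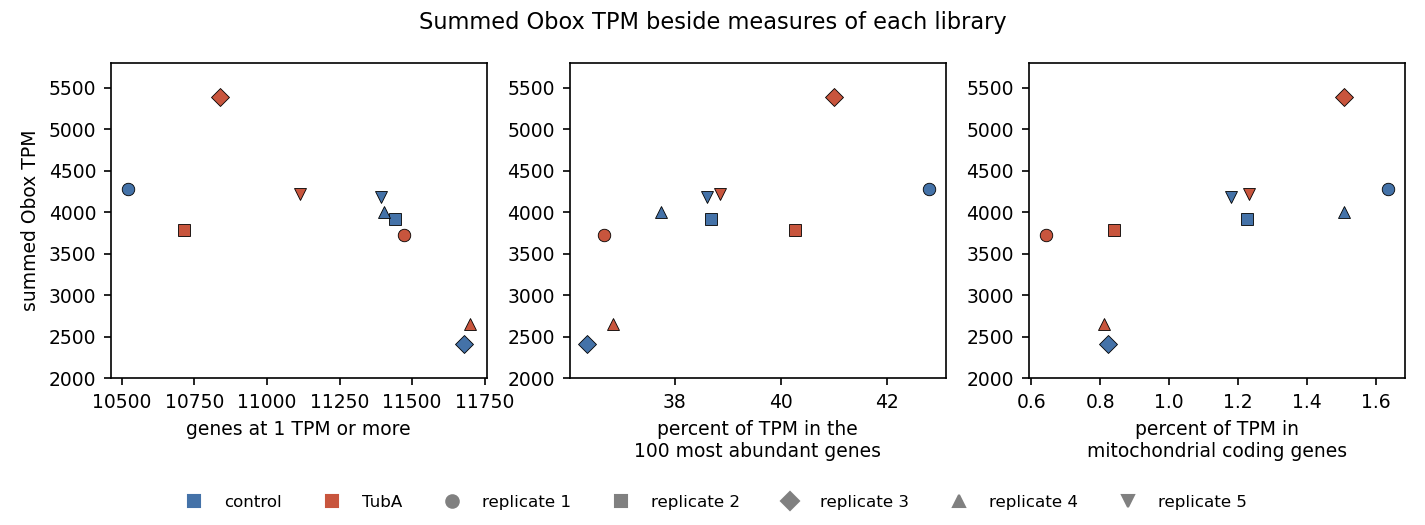
Summed Obox TPM of each library (vertical axis, linear, not starting at 0) against the number of genes at 1 TPM or more, the percentage of TPM in the 100 most abundant genes and the percentage in mitochondrial coding genes; colour is the group and marker shape the replicate number. Control 3 and TubA 4 lie together at the lowest Obox sums and the highest gene numbers.

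The libraries were clustered by their correlation over the genes tested and cut into 2 sets, a number that was imposed. Set A held control 1 to 3 with TubA 1 and 2, and set B held control 4 and 5 with TubA 3 to 5. These sets were found from the values and are no label. The difference in the Obox sum was 217.1 TPM within set A and -7.15 TPM within set B. Within set A the log2 differences were 0.03 for Obox1, 0.18 for Obox2, 0.19 for Obox5 and -0.09 for Obox7. Within set B they were -0.08, -0.17, -0.02 and 0.10 in the same order. The sets were not shown to differ in their response (limma interaction, adjusted p = 1.0 for each of the 4 genes).

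The cells were oocytes by their markers in both groups. The 8 oocyte markers summed to 26734.5 to 37709 TPM in control libraries and 28430 to 37258.5 TPM in TubA libraries. The 9 cumulus and granulosa markers summed to 14.8 to 20.9 and 11.9 to 24.8 TPM, with Amh and Foxl2 at 0 in all libraries. Cyp19a1 and Nr5a2 of that list were above 0 in all libraries, at 6.595 to 18.03 and 3.633 to 7.933 TPM. The 8 theca and stroma markers summed to 3.09 to 17.4 and 4.29 to 13.1 TPM, and the 8 blood, immune and endothelial markers to 27.2 to 75.6 and 39.7 to 79.4 TPM. Among the latter, Pecam1 stood between 17.46 and 45.06 TPM and C1qb between 2.909 and 54.34 TPM over all libraries. None of the markers tested was called.

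In the deposited values a single transcript was given most of the TPM of each abundant member. For Obox1 and Obox7 the division between transcripts is uncertain. Neither transcript levels nor their shares differed with TubA beyond the spread. Of the 25 transcripts, 9 averaged at least 1 TPM and were tested, and none was called (limma, lowest unadjusted p = 0.37, adjusted p = 1.0), against 1 of 21838 over all transcripts (0.00458%). The groups overlapped for each of the 9, and 0.467% of all transcripts tested had no overlap. Another 4 transcripts were listed at 0 in all libraries. Obox5-201 held 99.8% ± 0.116 of the Obox5 TPM in control and 99.9% ± 0.0572 with TubA. Obox2-201 held 99.2% ± 0.416 and 99.3% ± 0.248 of that of Obox2.

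Obox1 and Obox7 were each split between a pair of transcripts. Obox1-206 averaged 636 ± 151.5 TPM in the control group and 638 ± 179.0 TPM in the TubA group, and Obox1-201 at 143 ± 36.1 and 172 ± 83.2 TPM. The share of Obox1-206 in the gene was 81.0% ± 3.90 and 79.3% ± 5.37, with libraries between 72.9% and 86.9% (exact permutation p = 0.595, adjusted p = 0.917 over 6 shares). Obox7-201 held 89.3% ± 7.06 and 89.6% ± 4.05 of the Obox7 TPM (exact permutation p = 0.960). Its partner Obox7-203 held between 4.23% and 21.9%, with the highest share in control 3.

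The annotation places Obox1-206 from 15388948 to 15556846 on chromosome 7, so that it begins inside the Obox2 locus and ends in the Obox1 locus. Obox1-201 begins at 15546982, in the Obox1 locus itself. All 31-base words of Obox1-206 (100%) also occur in Obox1-201, and 64.9% occur in Obox2-201. The TPM of Obox1-206 therefore rests on no sequence stretch of that length that Obox1-201 lacks, and its split from Obox1-201 is uncertain. Of the words of Obox7-201, 92.7% occur in Obox7-203, and of those of Obox7-203, 81.8% occur in Obox7-201. The split between these 2 transcripts is thus uncertain too.

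The same holds in part between genes. Of the words of Obox1, 65.8% occur in Obox2, and of those of Obox2, 73.1% occur in Obox1. Of the words of Obox5, 24.8% occur in Obox7, and of those of Obox7, 32.9% occur in Obox5. Obox6 shared only 1.07% of its words with any other gene listed above 0. The step of 0.13 between Obox2 and Obox1 is thus one that depends on how the authors' program divided shared reads. Summing each pair takes the division within it out of the comparison: Obox1 plus Obox2 differed by 0.07 between groups (SE 0.25) and Obox5 plus Obox7 by 0.07 (SE 0.19), both with a limma adjusted p of 0.9999. The ratio of Obox1 to Obox2 ran from 0.772 to 1.10 over the 10 libraries, and that of Obox7 to Obox5 from 0.127 to 0.212.

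**Figure D5:**
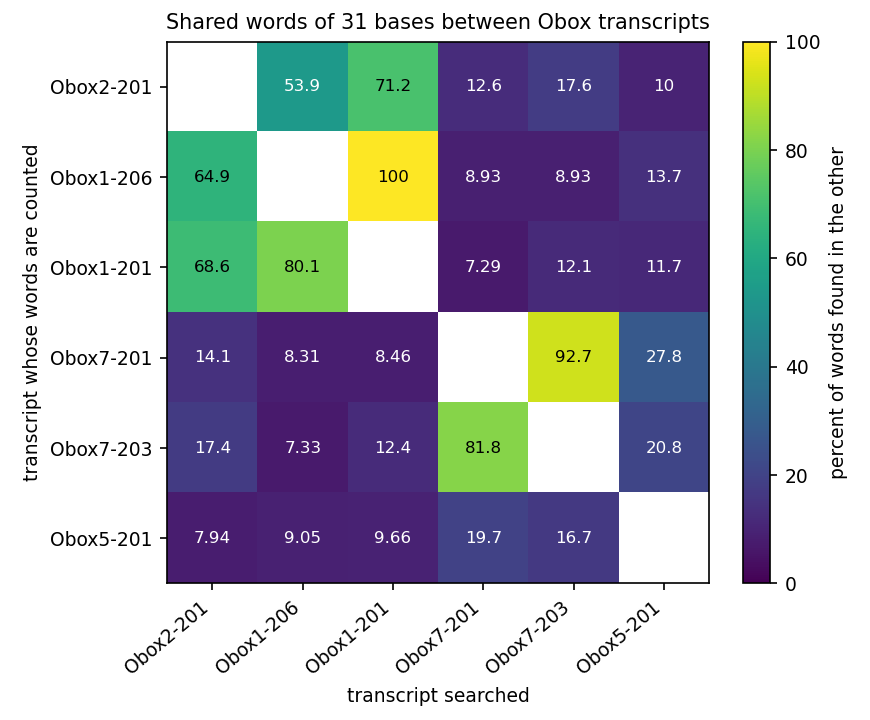
Percentage of the 31-base words of each abundant Obox transcript (rows) that also occur in another transcript (columns), given as a number and a colour in each field. Obox1-206 shares 100% of its words with Obox1-201 and 64.9% with Obox2-201, whereas Obox5-201 shares at most 19.7% with any other.

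The RefSeq start regions of 5 members had a stretch in common. RefSeq promoter windows (GRCm38.p6, 250 bases before to 50 after each start) were given for 5 members, all but Obox6. The longest stretch shared by these 5 windows is shown because these members have it in common, and all of its bases, in capitals, are the same in the 5 genes.
shared stretch: GTGAGAATTAAGGATTTGAATATTG
It lay at chr7:15547159-15547183 (plus strand) for Obox1, chr7:15388850-15388874 (plus) for Obox2, chr7:15639862-15639886 (minus) for Obox3, chr7:15750260-15750284 (plus) for Obox5 and chr7:14659624-14659648 (plus) for Obox7. Of 32851 windows, only those 5 held it, read on the strand of each gene, and the rest of the genome was not searched. The GENCODE starts of the transcripts measured here can differ from the RefSeq starts. Obox2-201 begins at 15388721 and Obox1-201 at 15546982, both ahead of the stretch, and Obox1-206 begins at 15388948, in the Obox2 locus. Obox5-201 begins at 15750377 and Obox7-201 at 14659733, both after the stretch. The stretch and the motif are thus placed by the RefSeq starts only. The motif TATATAA, a form of the TATA box, began 79 bases after the start of the stretch in Obox1, Obox3, Obox5 and Obox7. On both strands it occurred in 1065 of the 32851 windows (3.24%). The Obox2 window ended too early to show whether it follows there. Obox3, at trace level in these oocytes, carried both the stretch and the motif, as Obox1, Obox5 and Obox7 did. TAATCC occurred in the window of 1 of the 5 members, Obox3, and in 7.06% of all windows. TAATTA and TAATTG occurred in 5.29% and 8.00% of all windows and in none of the 5.

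Some other genes followed the libraries as the abundant members did. Likeness was measured as the root-mean-square distance between centred log2(TPM + 1) profiles over the 10 libraries, among 5820 genes of at least 10 TPM. Nearest to Obox1 were Mphosph6, an RNA exosome cofactor (0.088), Ccnyl1, a cyclin Y-like gene (0.090), and Snrnp27, a spliceosomal protein gene (0.097). The median distance of all genes to Obox1 was 0.581. Nearest to Obox2 was Obox1 itself (0.129), then Ccnyl1 (0.139) and Mrpl21, of the mitochondrial ribosome (0.147). Nearest to Obox5 were Oaz1, the antizyme of ornithine decarboxylase (0.091), Smim14 (0.097) and the spliceosomal gene Cwc15 (0.105). Nearest to Obox7 were the kinase genes Srpk2 (0.186) and Riok1 (0.188) and the mitochondrial mt-Co1 (0.188). Obox7 thus had no gene as near as those of the other 3 members. The points share their libraries, and distances are descriptions.

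The other Obox genes were low. Obox8, which lies outside the span of the members, averaged 2.57 ± 1.21 TPM in the control group and 2.20 ± 1.87 TPM in the TubA group (log2 difference -0.23, SE 0.40, limma adjusted p = 0.9999). Of 47 Obox pseudogenes, 20 were at 0 in all libraries and 3 averaged at least 1 TPM, and together they reached 3.26 to 12.02 TPM per library, a small fraction of the family sum. Obox4-ps3, singled out after its values were seen, was listed at 0 in 4 control libraries and stood at 0.808 TPM in control 3, above TubA 5. It stood at 3.71, 0.947, 3.998, 1.21 and 0.724 TPM with TubA, with a log2 difference of 1.32 (SE 0.39) that did not pass (limma, unadjusted p = 0.0051, adjusted p = 0.9999). The span of the members, with the members themselves counted, holds 71 annotated genes, of which 48 are Obox genes or pseudogenes. Of these 71, 7 averaged at least 1 TPM and none was called. Those 7 include the 4 abundant members, and only 1 of the 7, Gtpbp4-ps6, is not an Obox gene or pseudogene.

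Genes around the family in the oocyte and early embryo were described by lists. Of 20 factors of embryonic genome activation, 14 were tested and 0 called, 7 higher and 7 lower with TubA, with a median log2 difference of -0.04 beside 0.01 over all genes tested. Among them, the chromatin factor Npm2 stood at 1924 ± 1153 and 1929.5 ± 1852 TPM, the coactivator Yap1 at 261 ± 73.8 and 260.2 ± 58.7 TPM and the corepressor Trim28 at 149 ± 46.8 and 121 ± 64.5 TPM. Of 22 genes switched on at the 2-cell stage, 5 were tested and 0 called (median -0.08). Tcstv1 stood at 145 ± 54.3 and 127 ± 71.7 TPM. Of 37 other homeobox genes, 19 were tested and 0 called (median -0.10). Meis2, at 2202 ± 250.7 and 2029 ± 476 TPM, was of the same order as Obox5, and Satb1 and Pou2f1 followed. Lhx8 and Nobox stand in this list and in the next. Of 11 oocyte transcription factors, 9 were tested and 0 called (median 0.26, 5 higher and 4 lower). Among those, Lhx8 stood at 117 ± 26.2 and 175 ± 126 TPM and Nobox, an oocyte homeobox gene needed for follicle growth, at 100.1 ± 26.9 and 147 ± 86.7 TPM.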

How the data were processed

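Single oocytes were amplified with Smart-seq2, per the labels' protocols. The deposited values are TPM, 1 per Ensembl transcript and library. The submitters' processing notes give mm10 and Bowtie 0.12.2; for the abundance program and its annotation the sources used here give no name. The unit was read from the values, which sum to 1000000 in each library. TPM keeps no depth, so precision is the spread between libraries. Reads shared by near-identical copies were divided before deposit.

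Transcripts were summed to genes with GENCODE M21 (GRCm38, the assembly of mm10). Of 115270 transcripts, 1778 did not match and were left out, with 0.531% to 0.753% of TPM. limma 3.58.1 (R 4.3.3) was run on log2(TPM + 1), which understates changes of low genes, for the 11664 genes and 21838 transcripts with a mean of at least 1 TPM. It used trend and robust moderation and Benjamini-Hochberg adjustment at 0.05. Single values per library were tested by exact two-sided permutation. On 10 simulated data sets of these 11664 genes, 28.7% of 2-fold and 80.9% of 4-fold changes among 200 changed genes were recovered for this comparison. On average 6.14% of the calls were false. The changed genes were drawn from the more abundant ones only, and the noise was independent for each gene and library. The rule for named genes takes all members, the other Obox genes, up to 3 genes of highest mean per list, and the 3 nearest profiles of each member. Members, lists, rules and alternatives were chosen with earlier results of these data known. Python 3.11.15, pandas 2.3.3, numpy 2.4.6, Biopython 1.88 and matplotlib 3.10.9 were used. No pair of files held identical values.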

Additional observations from a re-analysis of the deposited data

Results flagged for a closer look

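In groups of 5 libraries, a value was picked out where its gap to the nearest other library exceeded 0.71 of the group's range. Of 34 group values tested this way 4 stood out, and chance alone picks out about 1 in 20. Among control libraries, control 3 was far below the rest for Obox1 (487.5 TPM) and for the summed Obox TPM (2417.3 TPM), and the sum contains Obox1. Obox6 stood out high in control 3 (1.302 TPM) and in TubA 5 (1.033 TPM), since it was listed at 0 in the other libraries of each group.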

How the results depend on the processing

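No member of the family was called under any of the 88 alternative fits, and log2 differences ran from -0.17 to 0.24. The sign of these small differences was less fixed, and the cause was not tested. With the library set as a term, Obox1 came to -0.0275 and Obox7 to 0.0055. Within set B alone, Obox1 came to -0.0821, Obox2 to -0.166, Obox5 to -0.0193 and Obox7 to 0.10. Array weights gave 0.10 for Obox7, and summing it with Obox5 gave 0.0654. Leaving out each library in turn gave -0.13 to 0.16 for Obox1, -0.12 to 0.24 for Obox2, -0.0462 to 0.21 for Obox5 and -0.10 to 0.15 for Obox7. It gave -165.2 to 519.9 TPM for the summed Obox TPM, 1 to 1 genes called, 0 to 2 transcripts called, 0 to 0 shares past the threshold and 3 to 4 steps of the order. The negative sums came without control 3 (-141.9 TPM) and without TubA 3 (-165.2 TPM). Over all genes, the 1 call became 0 with a filter at 5 TPM (166 genes with an unadjusted p under 0.05), 12 in set A alone and 0 in set B alone (208). Over all transcripts, the 1 call became 0 with a pseudocount of 0.01 TPM (608), 0 with a filter at 5 TPM (314), 23 in set A alone and 0 in set B alone (604). With the replicate number as a block, 0 genes (313) and 0 transcripts (672) were called, and the differences of the members and the summed TPM (193.9 TPM) were as without the block. The labels do not say whether same-numbered libraries belong together. Their deviations correlated at -0.31 to 0.48, and 4 of 10 libraries were closest to their own number. The order of levels was not tested in each group alone, since 5 libraries cannot give an exact p below 0.0625. TPM without counts limits what can be said of Obox3 and Obox6.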

Other observations

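The pseudogene Obox4-ps2 was singled out from the 48 other Obox genes and pseudogenes after the values were seen. It was above 0 in the same pair of libraries as Obox6, at 4.44 TPM in control 3 and 3.44 TPM in TubA 5. In the other 8 it was listed at 0, and the match was not tested. Obox4-ps34 stood between 0 and 7.11 TPM with no difference past the test (limma, log2 difference -0.22, SE 0.56, adjusted p = 0.9999).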
